A study of Sus scrofa domesticus with 6 samples.

Results

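HMCN2, SLC4A9, PEBP4 and MLIP are 4 of the 25322 gene rows in the deposited expression table of the pig mandibular condyle, the knob of the jaw bone that articulates with the skull. They were selected on their rise in read counts at day 85 of gestation relative to day 45, so their difference between the ages is given here as a description without a test. Their levels are then set against skeletal muscle RNA in each library, gauged by ACTA1, and beside those of their relatives and partners. All 4 passed the filter on low counts, which 15022 genes passed and which the day 85 counts alone can satisfy, so that passing it says nothing of day 45. Bulk RNA was sequenced from condylar cartilage of miniature pig embryos (Sus scrofa domesticus), with 3 libraries at day 85 and 3 at day 45. The labels give the source as chondrocytes and osteocytes, name no strain beyond miniature pig and no agent that separates the ages, and do not say that each library came from its own embryo. Total counts were 12546729 to 16033822 at day 85 and 14221365 to 16559616 at day 45.

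The 4 genes belong to different protein families. HMCN2 encodes hemicentin 2, a very large secreted protein of the extracellular matrix with many immunoglobulin-like domains, related to the fibulins; in Caenorhabditis elegans, hemicentin joins the basement membranes of neighbouring tissues. SLC4A9 encodes AE4, a bicarbonate transporter of the SLC4 family described in epithelia of the mouse kidney and salivary gland. PEBP4 belongs to the phosphatidylethanolamine-binding proteins, whose best known member, PEBP1, restrains the ERK kinase cascade. MLIP, the muscle-enriched A-type lamin interacting protein, binds lamin A/C, the product of LMNA, and is most abundant in heart and skeletal muscle, where in humans its loss causes a muscle disease. ACTA1 encodes the actin of skeletal muscle fibres, the tissue of the chewing muscles that attach beside the condyle.

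The table itself names SLC4A9 (ENSSSCG00000014363) and PEBP4 (ENSSSCG00000009631). The rows of HMCN2 (ENSSSCG00000005699) and MLIP (ENSSSCG00000001485) carry no name there and took theirs from a table of Ensembl IDs and symbols. The authors' coordinates come with no genome build in the sources used here. In them, HMCN2 lies on chromosome 1 from 304346787 to 304445413 and SLC4A9 on chromosome 2 from 148075312 to 148082479. PEBP4 lies on chromosome 14 from 7446930 to 7698221 and MLIP on chromosome 7 from 31068529 to 31142923. For each gene, 6 of the 6 nearest named rows (3 on either side) also lie within 1 Mb of it in RefSeq's Sscrofa11.1; for HMCN2 these include NCS1 and ASS1, and for MLIP LRRC1 and KLHL31. No other row of the table overlaps the span of any of the 4. Counts and FPKM together imply a counted length of 12.2 kb for HMCN2, 1.67 kb for SLC4A9, 0.780 kb for PEBP4 and 2.92 kb for MLIP.

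The day 85 libraries were not alike, and this bears on all 4 genes. A list of skeletal muscle fibre genes took 6.77%, 0.458% and 5.48% of the counts in day 85 replicates 1, 2 and 3, against 1.29%, 0.695% and 1.66% in day 45 replicates 1, 2 and 3. COL2A1, the main collagen of cartilage, stood at 28.8, 1074 and 50.6 CPM (read counts scaled by TMM-adjusted library totals) at day 85, against 4999, 4107 and 3733 CPM at day 45. Day 85 replicates 1 and 3 were thus the highest in muscle RNA and the lowest in cartilage collagen RNA of the 6 libraries, although labelled as cartilage, and replicate 2 was below every day 45 library for the muscle list. Genes of several other sources were highest in day 85 replicate 2. The Schwann cell genes summed to 232, 2367 and 221 CPM at day 85, against 305, 142 and 202 CPM at day 45, and the osteoclast genes to 2148, 15183 and 2580 CPM, against 499, 1570 and 528 CPM at day 45. In bulk RNA, fewer cells of a type and less RNA per cell cannot be told apart.

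HMCN2 had the widest difference of the 4. It stood at 146, 19.8 and 166 CPM in day 85 replicates 1, 2 and 3, against 0.796, 0.721 and 4.06 CPM in day 45 replicates 1, 2 and 3. All day 85 libraries lay above all day 45 libraries, with replicate 2 far below the other two of its age and day 45 replicate 3 well above its own group. The log2 fold change was 5.88 with a standard error (SE) of 1.11, the third highest of all tested genes. It rests on 1892, 297 and 2514 counts at day 85 and on 13, 10 and 62 counts at day 45, and it was 7.16 without day 45 replicate 3.

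SLC4A9 stood at 22.6, 2.93 and 20.4 CPM at day 85, against 0.918, 0.649 and 0.654 CPM at day 45. The ages did not overlap, but day 85 replicate 2 was nearer to the day 45 libraries than to replicates 1 and 3. The log2 fold change was 4.35 (SE 0.82). The day 45 libraries held 15, 9 and 10 counts, so that level rests on few reads.

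PEBP4 stood at 39.7, 11.7 and 32.9 CPM at day 85, against 1.78, 0.721 and 2.22 CPM at day 45, a log2 fold change of 4.14 (SE 0.60). Replicate 2 was again the lowest day 85 library, though it lay well above every day 45 library. MLIP stood at 18.8, 9.80 and 20.7 CPM at day 85, against 2.08, 1.30 and 2.36 CPM at day 45, a log2 fold change of 3.09 (SE 0.37). Its day 85 libraries were the closest together of the 4 genes, and its ages did not overlap either. Of all 15022 tested genes, 17.4% had every day 85 library above every day 45 library, and 3.9% were called higher by edgeR's quasi-likelihood test at a Benjamini-Hochberg adjusted p under 0.05. That is 586 genes, beside 400 called lower; scaled by library totals alone, 437 were called higher and 598 lower. Nothing is read from these shares for the 4 genes, which were chosen for their rise.

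**Figure D1:**
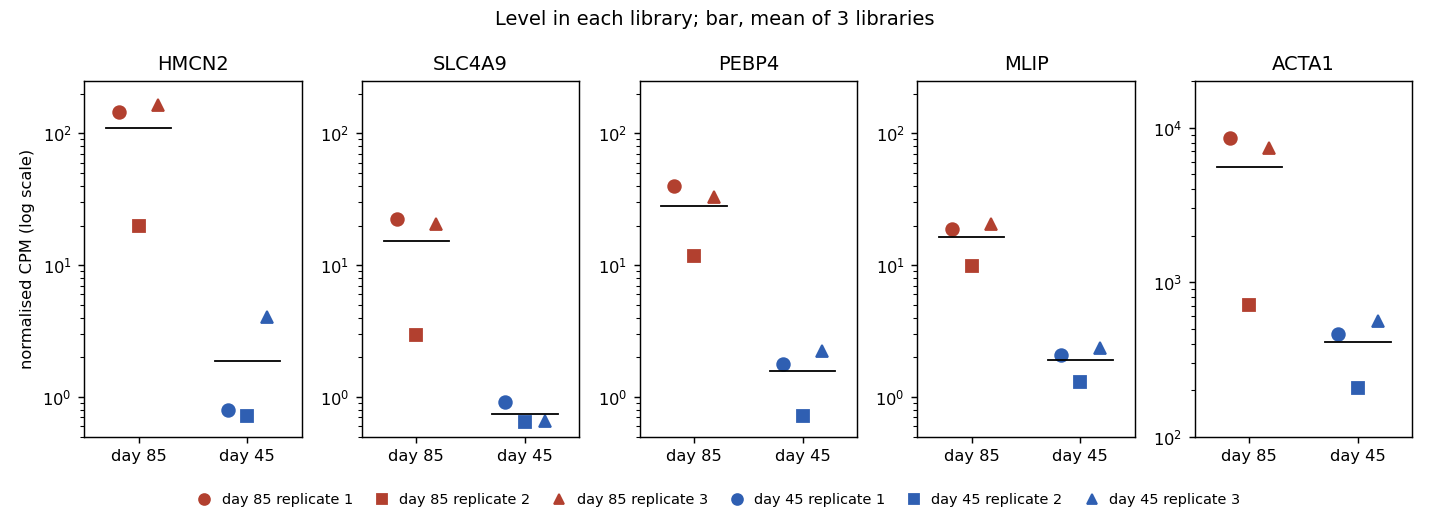
Normalised CPM (log axis; the ACTA1 panel has its own range) of HMCN2, SLC4A9, PEBP4, MLIP and ACTA1 in each day 85 and day 45 library, with 1 marker shape per replicate number and a bar at the mean of 3 libraries. In all 5 panels day 85 replicate 2 is the lowest of its age and lies above the day 45 libraries, by the widest margin for PEBP4, HMCN2 and MLIP.

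Per length, the deposited FPKM values put PEBP4 first at day 85, with 36.1 ± 19.8 FPKM (SD, n = 3 for all of these), and SLC4A9 (9.25 ± 6.65 FPKM), HMCN2 (9.13 ± 6.61 FPKM) and MLIP (5.60 ± 2.14 FPKM) after it. The levels of these last 3 differed by less than their spread. At day 45 PEBP4 was also first, with 2.07 ± 1.10 FPKM, before MLIP (0.666 ± 0.221 FPKM), SLC4A9 (0.447 ± 0.0862 FPKM) and HMCN2 (0.160 ± 0.171 FPKM). HMCN2 thus had the lowest mean of the 4 at day 45, where its SD exceeded its mean, and not at day 85. In day 85 replicate 2 alone the levels were 14.1 FPKM for PEBP4, 3.14 for MLIP, 1.65 for SLC4A9 and 1.52 for HMCN2, the same order as the day 45 means.

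ACTA1 stood at 8543, 714 and 7325 CPM in day 85 replicates 1, 2 and 3, against 460, 205 and 559 CPM at day 45. Replicates 1 and 3 averaged 11.1 times the ACTA1 level of replicate 2. The same ratio was 7.88 for HMCN2, 7.33 for SLC4A9, 3.09 for PEBP4 and 2.02 for MLIP. All 4 genes were thus higher in the muscle-rich libraries of day 85, HMCN2 and SLC4A9 by somewhat less than ACTA1 and MLIP by far less. At day 45, replicate 2 had the lowest ACTA1 and also the lowest HMCN2, SLC4A9, PEBP4 and MLIP, although for SLC4A9 its 9 counts and the 10 counts of replicate 3 scaled to nearly the same level. Day 45 replicate 3 had the highest ACTA1 and the highest HMCN2, PEBP4 and MLIP.

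**Figure D2:**
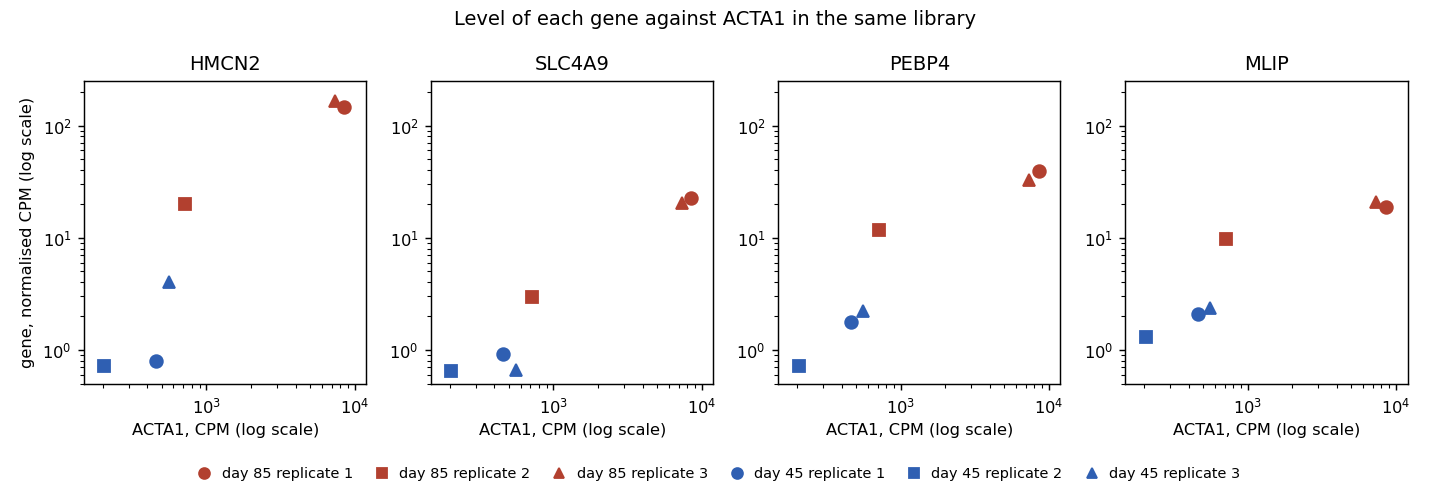
Normalised CPM of each gene (y, log axis) against ACTA1 CPM in the same library (x, log axis), 1 point per library. Day 85 replicate 2, at 714 CPM of ACTA1, sits near the day 45 libraries on the x axis (205 to 559 CPM) but above them on the y axis for all 4 genes, and the rise from it to replicates 1 and 3 is steep for HMCN2 and SLC4A9 and shallow for MLIP.

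Day 85 replicate 2 came nearest to day 45 in ACTA1, at 1.28 times the highest day 45 library (95% counting interval 1.24 to 1.31). MYLPF, a fast-fibre myosin light chain, was at 0.320 times and CKM, the muscle creatine kinase, at 0.550 times their highest day 45 library. Replicate 2 was also the highest of all libraries for the Schwann cell, osteoclast, macrophage, bone and red cell lists, so comparing it with day 45 does not isolate age. Against the highest day 45 library, the same replicate held 4.88 times as much HMCN2 (interval 3.70 to 6.53), 3.19 times as much SLC4A9 (1.74 to 6.18), 5.27 times as much PEBP4 (3.64 to 7.86) and 4.16 times as much MLIP (2.87 to 6.17). These intervals cover counting error only, since 1 library gives no spread between samples. With replicate 2 as the only day 85 library, the log2 fold changes were 3.40 for HMCN2, 1.97 for SLC4A9, 2.88 for PEBP4 and 2.35 for MLIP. Without it they were 6.38, 4.83, 4.50 and 3.35 in that order.

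Fibre genes were mostly at or below their day 45 level in that library. Of 32 tested genes of the muscle fibre list, 7 stood above their day 45 mean in day 85 replicate 2, and the ratio of replicate 2 to the day 45 mean ran from 0.0453 to 3.85 with a median of 0.467. HMCN2, SLC4A9, PEBP4 and MLIP had ratios of 10.7, 3.96, 7.45 and 5.13, above those of 32 of the 32 fibre genes. The nearest was MYBPC2, the fast-fibre form of myosin-binding protein C, at 3.85. In replicates 1 and 3 the 32 fibre genes averaged 3.41 to 55.0 times their replicate 2 level, with a median of 13.8, and TPM1, a tropomyosin shared with smooth muscle, gave the lowest of these ratios. PEBP4 and MLIP lay below that range, at 3.09 and 2.02, and HMCN2 and SLC4A9 in its lower part. These comparisons use the day 85 rise by which the 4 genes were chosen and describe these libraries only.

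**Figure D3:**
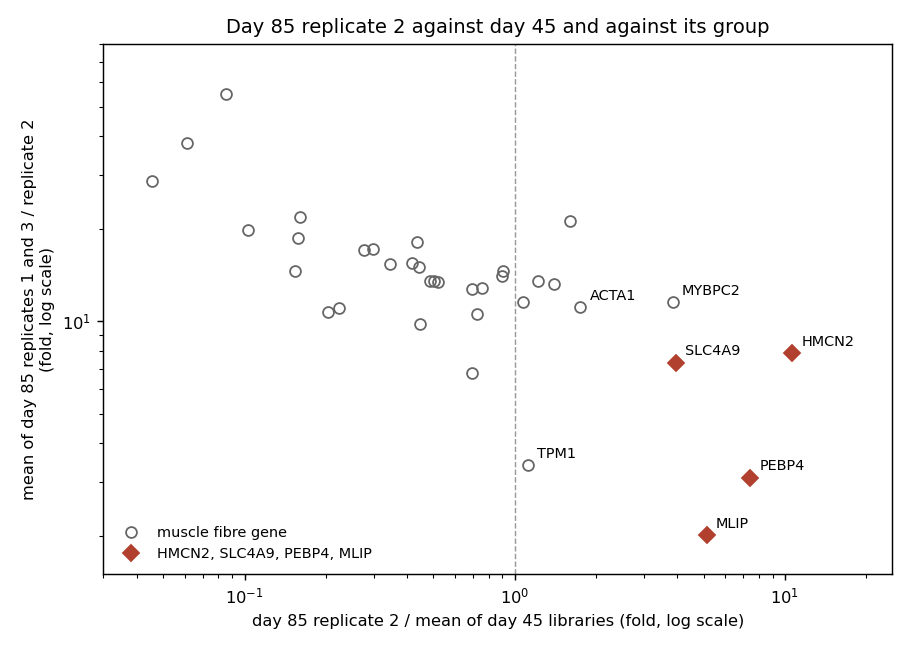
Fold of day 85 replicate 2 over the mean of the day 45 libraries (x, log axis) and fold of the mean of day 85 replicates 1 and 3 over replicate 2 (y, log axis) for HMCN2, SLC4A9, PEBP4 and MLIP (filled diamonds) and 32 muscle fibre genes (open circles); the dashed line marks equal levels in replicate 2 and at day 45. The 4 genes lie to the right of all fibre genes, at 3.96 to 10.7, with MYBPC2 next to SLC4A9 on the x axis at 3.85.

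Counts were also set against ACTA1 within each library, a ratio that no scaling between libraries can move. HMCN2 had 17.1, 27.7 and 22.6 counts per 1000 ACTA1 counts at day 85, against 1.73, 3.52 and 7.25 at day 45. Its ages did not overlap on this measure, and the mean difference was 2.64 on the log2 scale. SLC4A9 had 2.64, 4.11 and 2.79 counts per 1000 at day 85, against 2.00, 3.17 and 1.17 at day 45, a difference of 0.68. Its ages overlapped, and the ratio stayed between 1.17 and 4.11 in all 6 libraries while the SLC4A9 level itself ran from 0.649 to 22.6 CPM.

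PEBP4 had 4.64, 16.4 and 4.49 counts per 1000 ACTA1 counts at day 85, against 3.86, 3.52 and 3.98 at day 45. Its ages did not overlap, though by a narrow margin (4.49 against 3.98). The high value in replicate 2 set most of the log2 difference of 0.89, which was 0.27 without that library. MLIP had 2.20, 13.7 and 2.83 at day 85, against 4.52, 6.33 and 4.21 at day 45. Its ages overlapped, with day 85 replicates 1 and 3 below and replicate 2 above all day 45 libraries, and its difference of -0.17 became -0.99 without day 85 replicate 2 and 0.33 without day 85 replicate 1.

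**Figure D4:**
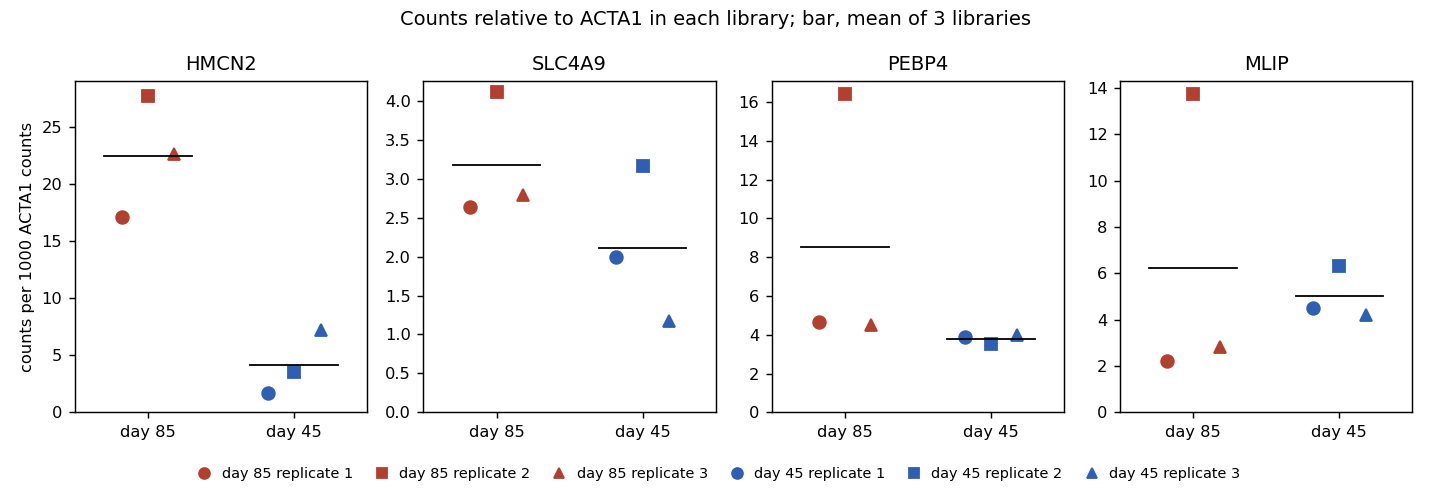
Counts of each gene per 1000 ACTA1 counts (y, linear from 0, own range per panel) in each day 85 and day 45 library, with a bar at the mean of 3 libraries. The ages separate clearly for HMCN2 (17.1 to 27.7 against 1.73 to 7.25), narrowly for PEBP4 and not for SLC4A9 or MLIP. For PEBP4 and MLIP day 85 replicate 2 stands far above the other libraries, at 16.4 and 13.7.

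These differences depended on the muscle gene used as the gauge; ACTA1's own log2 fold change of 3.76 (SE 0.95, edgeR adjusted p = 0.0688; adjusted p = 0.00136 in DESeq2, and 0.00324 in edgeR without day 85 replicate 2) lay above the fibre list's median of 2.16. With MYLPF in place of ACTA1 they were 4.74, 2.78, 2.99 and 1.93 for HMCN2, SLC4A9, PEBP4 and MLIP, and with CKM 3.70, 1.73, 1.94 and 0.89. With the summed fibre list they were 4.68, 2.72, 2.93 and 1.87. The sign for MLIP thus turned with the gauge, and the other 3 were positive with each. Relative to the summed fibre list, day 85 lay above day 45 without overlap for all 4 genes. A fit of age together with log2 ACTA1 gave a log2 change per log2 unit of ACTA1 of 0.89 (SE 0.18) for HMCN2, 0.79 (SE 0.11) for SLC4A9, 0.51 (SE 0.08) for PEBP4 and 0.31 (SE 0.07) for MLIP. The fibre genes CKM, MYLPF and MYBPC2 gave 1.07 (SE 0.06), 0.94 (SE 0.09) and 0.93 (SE 0.15), close to HMCN2. At equal ACTA1, that fit left an age difference of 2.67 (SE 0.64) for HMCN2, 1.39 (SE 0.44) for SLC4A9, 2.39 (SE 0.31) for PEBP4 and 2.04 (SE 0.29) for MLIP, all smaller than without the term. The same age difference was 1.30 (SE 0.51) for MYBPC2, close to SLC4A9, and -1.27 (SE 0.22) for CKM and -1.92 (SE 0.35) for MYLPF. The fit has 3 residual degrees of freedom, and at day 85 replicate 2 alone comes near the day 45 range of ACTA1. Its age differences for the 4 genes draw on the rise by which they were chosen and are a description without a test. It is shown for 3 fibre genes only. For MLIP, the fit's age difference of 2.04 differs in sign from that of the ratio to ACTA1, -0.17. The ratio takes a gene to change in equal proportion to ACTA1, whereas the fit estimates that slope.

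Over the 6 libraries, PEBP4 and MLIP had the most similar patterns of the 4 genes, with a Pearson r of 0.996 on log2(CPM + 0.5). That made PEBP4 the second most similar of 11737 genes to MLIP, and MLIP the fourth most similar to PEBP4. The r with ACTA1 was 0.972 for SLC4A9, 0.95 for HMCN2, 0.944 for PEBP4 and 0.923 for MLIP. The 4 genes were chosen for differing between the ages and share the same 6 libraries, so high values are built in.

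The genes closest to HMCN2 were RNF125, STON2, PPTC7, FAM214A and FZD4, with r from 0.993 to 0.998. FZD4, a Wnt and norrin receptor of vessels, stood at 180, 126 and 167 CPM at day 85, against 61.7, 64.5 and 82.4 CPM at day 45. Among the 5 genes closest to SLC4A9 were SPRY1, GRM2, DUSP3 and GUCD1 (r from 0.995 to 1.00), and DUSP3, a phosphatase that acts on ERK and JNK, stood at 144, 68.0 and 149 CPM at day 85, against 43.1, 41.5 and 45.5 CPM at day 45. CLCN3, PDE2A, RNF149, MLIP and GPR155 were closest to PEBP4, and SHROOM4, PEBP4, LRP11, AVPI1 and CLCN3 to MLIP. The chloride transporter gene CLCN3 is on both lists, at 25.9, 20.3 and 24.3 CPM at day 85, against 13.7, 12.1 and 14.7 CPM at day 45. Pearson's r ignores the size of a change, and most of these genes differed far less between the ages than the 4 did. With Spearman's rho as the measure, 0, 0, 0 and 1 of the 5 names were shared for HMCN2, SLC4A9, PEBP4 and MLIP.

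Partners and relatives of each gene were tested in the same contrast, with p-values adjusted over all genes. Of 26 tested genes of fibulins and basement membranes, the surroundings in which hemicentins act, 4 were higher and 1 lower at day 85, against 3.9% and 2.66% of all tested genes called higher and lower. Looser rules called more of all genes: before adjustment, p was under 0.05 for 15.8% on the higher side and 13.3% on the lower side, and DESeq2 called 12.6% higher and 10.8% lower. Their median log2 fold change was 0.61, against 0.02 over all genes. COL15A1, a collagen of the basement membrane zone of muscle and capillaries, rose to 60.8 ± 10.6 CPM at day 85, against 17.3 ± 6.70 CPM at day 45 (SD, n = 3 each; log2 fold change 1.81, SE 0.29, edgeR adjusted p = 0.0267). DAG1, the dystroglycan receptor that ties muscle fibres to laminin, rose 2.05-fold (edgeR adjusted p = 0.0319), the heparan sulfate proteoglycan HSPG2 2.04-fold (edgeR adjusted p = 0.0398) and the laminin chain LAMC1 2.22-fold (edgeR adjusted p = 0.0440). AGRN, the proteoglycan agrin, fell to 397 ± 86.9 CPM at day 85, against 695 ± 17.2 CPM at day 45 (log2 change -0.81, SE 0.18, edgeR adjusted p = 0.0465).

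FBLN1, FBLN2, FBLN5, FBLN7, EFEMP1 and EFEMP2, all of the fibulin family, did not pass. FBLN5, which helps to assemble elastic fibres, averaged 102 CPM at day 85 and 190 CPM at day 45 (edgeR adjusted p = 0.0645). FBLN1 averaged 250 CPM at day 85 and 394 CPM at day 45, FBLN7 43.1 CPM at day 85 and 77.5 CPM at day 45, and FBLN2 157 CPM at day 85 and 166 CPM at day 45. EFEMP2 averaged 397 CPM at day 85 and 461 CPM at day 45 (edgeR adjusted p = 0.549). These means were lower at day 85, whereas EFEMP1 averaged 42.7 CPM at day 85 and 19.7 CPM at day 45 (edgeR adjusted p = 0.268). The fold changes of these relatives ran from 0.533 to 2.17, against 59.1 for HMCN2. HMCN1, the other hemicentin gene, was not analysed here.

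In the SLC4 and acid-base list, edgeR called 2 of 21 tested genes higher and 0 lower, and the median log2 fold change was 0.31. Before adjustment, 7 were higher and 1 lower at p under 0.05. DESeq2 called 8 of the list higher and 1 lower. SLC4A1, the anion exchanger of red cells, had 23.0, 47.1 and 10.6 CPM at day 85, against 0.490, 0.289 and 2.09 CPM at day 45 (log2 change 4.79, SE 0.88, edgeR adjusted p = 0.0379). Its highest library was day 85 replicate 2, the day 85 library in which SLC4A9 was lowest and in which the red cell and megakaryocyte list peaked (1509, 2534 and 799 CPM, against 854, 758 and 485 CPM at day 45). SLC4A1 lost its call without each library other than day 85 replicate 2, with edgeR adjusted p from 0.0591 to 0.161. The sodium-proton exchanger SLC9A2 rose to 5.55 ± 0.880 CPM at day 85, against 2.20 ± 0.326 CPM at day 45 (log2 change 1.33, edgeR adjusted p = 0.0334).

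The other SLC4 genes did not pass in the fit of all libraries. The sodium bicarbonate cotransporter SLC4A7 was at 82.3, 35.6 and 68.1 CPM at day 85, against 28.1, 27.1 and 34.3 CPM at day 45 (log2 change 1.05, SE 0.30, edgeR adjusted p = 0.0824). Like SLC4A9, it was lower in day 85 replicate 2 than in replicates 1 and 3. SLC4A4 averaged 29.0 CPM at day 85 and 19.4 CPM at day 45 (edgeR adjusted p = 0.0899), and SLC4A10 averaged 1.54 CPM at day 85, against 0.432 CPM at day 45 (edgeR adjusted p = 0.0740). SLC4A2, the widespread exchanger that osteoclasts use, peaked in day 85 replicate 2, the library with the most osteoclast RNA (163, 536 and 214 CPM at day 85, against 175, 258 and 169 CPM at day 45). SLC4A3 stood at 134, 48.1 and 85.1 CPM at day 85, against 101, 84.3 and 92.8 CPM at day 45, and SLC4A8 averaged 0.847 CPM at day 85, against 0.687 CPM at day 45. SLC4A11 averaged 1.79 CPM at day 85, against 2.03 CPM at day 45. SLC4A5 held 1 or 2 counts in every library and was not tested.

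Carbonic anhydrases supply bicarbonate to these transporters. CA14, a membrane form, was at 11.7, 3.60 and 11.9 CPM at day 85, against 2.69, 2.16 and 2.55 CPM at day 45 (log2 change 1.87, SE 0.46, edgeR adjusted p = 0.0598). CA4, an enzyme anchored to capillary and muscle membranes, held 197, 3 and 106 counts at day 85, against 11, 4 and 4 counts at day 45, and did not pass the filter. Both were low in day 85 replicate 2, as SLC4A9 was. CA2, the cytosolic enzyme that osteoclasts and red cells use, went the other way within day 85, at 24.5, 96.5 and 24.6 CPM at day 85, against 10.4, 15.3 and 3.53 CPM at day 45 (edgeR adjusted p = 0.115). CA5B, CA8 and CA13 were also highest in replicate 2 within day 85. CA3, the carbonic anhydrase of slow muscle fibres, averaged 310 CPM at day 85 and 245 CPM at day 45 (edgeR adjusted p = 0.354).

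Most listed genes of the epithelia in which SLC4A9 is known were low, but not all. FOXI1, the transcription factor of proton- and bicarbonate-secreting cells, had no count at day 85 and 3, 0 and 1 counts at day 45, and SLC26A4, an exchanger of the same cells, had 0, 2 and 1 counts at day 85 and 1, 0 and 0 at day 45. Counts of 0 allow up to 3 counts a library. The proton pump subunits ATP6V1B1 and ATP6V0A4 had 1, 4 and 0 and 12, 1 and 8 counts at day 85, against 16, 7 and 11 and 7, 10 and 9 counts at day 45, where SLC4A9 itself had 15, 9 and 10. Of 11 genes of such epithelia, 8 were too low to test. The other 3 did not pass in edgeR and were higher at an unadjusted p under 0.05; DESeq2 called 3 genes of the list higher and 1 lower. The 3 tested in edgeR were KIT, also a marker of mast cells, ATP6V0D2, also an osteoclast gene, and RHCG, an ammonium channel. KIT had 31.5, 16.4 and 25.6 CPM at day 85, against 7.47, 5.55 and 15.1 CPM at day 45. ATP6V0D2 had 36.6, 236 and 32.2 CPM at day 85, against 3.98, 21.5 and 4.51 CPM at day 45. RHCG had 8.81, 1.13 and 5.14 CPM at day 85, against 1.29, 0.433 and 1.57 CPM at day 45. RHCG was thus low in day 85 replicate 2, as SLC4A9 was, and its ages overlapped. Of 17 entries for epithelium and salivary gland, 14 were in the table and 9 tested, and their summed level was 17.3, 46.9 and 22.3 CPM at day 85, against 40.4, 14.9 and 35.3 CPM at day 45. Its members differed, since KRT8, a keratin of simple epithelia, reached 16.3 CPM in day 85 replicate 2, while the glandular kallikrein KLK1 had 4.10, 1.00 and 3.10 CPM at day 85, against 2.02, 0.361 and 1.11 CPM at day 45. The water channel AQP5 of salivary glands had 1.16, 2.07 and 1.25 CPM at day 85, against 1.78, 2.38 and 0.523 CPM at day 45. KRT5 had 0.696, 0.133 and 0 CPM at day 85, against 10.2, 2.31 and 3.14 CPM at day 45 (edgeR adjusted p = 0.0626). KRT14 held 4, 0 and 0 counts at day 85, against 42, 8 and 8 counts at day 45. CDH1 went the other way, with 2, 41 and 6 counts at day 85, against 5, 0 and 1 at day 45. Of the 9 tested, 5 had a positive log2 fold change. The part of epithelial cells in the level of SLC4A9 was not tested.

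PEBP1, the best known relative of PEBP4, had no higher level at day 85. It stood at 373, 378 and 358 CPM at day 85, against 461, 453 and 406 CPM at day 45 (log2 change -0.25, SE 0.12, edgeR adjusted p = 0.205). Per length it was far above PEBP4, at 169, 156 and 156 FPKM at day 85 and 200, 193 and 192 FPKM at day 45. Of the 24 tested genes of the PEBP and ERK cascade list, edgeR called 2 higher and 0 lower and DESeq2 8 higher and 0 lower. The median log2 fold change was 0.34, and before adjustment 10 were higher and 1 lower at p under 0.05. Both called genes are negative feedback regulators of ERK signalling. DUSP4 rose to 35.8 ± 6.86 CPM at day 85, against 14.5 ± 1.42 CPM at day 45 (log2 change 1.31, SE 0.18, edgeR adjusted p = 0.0200), and SPRY4 rose 2.48-fold (edgeR adjusted p = 0.0259). MAP2K1, a kinase of the cascade, averaged 60.1 CPM at day 85 and 37.3 CPM at day 45 and did not pass (edgeR adjusted p = 0.0966).

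The main partner of MLIP was not higher at day 85. LMNA, whose product MLIP binds, stood at 310, 630 and 482 CPM at day 85, against 828, 809 and 755 CPM at day 45. Its day 85 libraries lay below all day 45 libraries, and it did not pass (log2 change -0.75, SE 0.25, edgeR adjusted p = 0.115); it did in DESeq2 (adjusted p = 0.0177) and in edgeR without day 85 replicate 2 (adjusted p = 0.0188). Of 16 tested genes of the lamin and nuclear envelope list, edgeR called 2 lower and 0 higher and DESeq2 3 lower and 1 higher. The median log2 fold change was 0.09, and before adjustment 3 were lower and 1 higher at p under 0.05. The B-type lamins LMNB1 and LMNB2 fell to 86.1 ± 12.3 and 144 ± 17.0 CPM at day 85, against 155 ± 19.9 and 242 ± 10.1 CPM at day 45 (edgeR adjusted p = 0.0352 and 0.0293). Within day 85, LMNA was highest in replicate 2, where MLIP was lowest.

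The calls in these 4 lists changed with the library left out, as did those over all genes (range given in the last section). Nothing particular to a list is read from such counts, here or for the tissue lists below. Without day 85 replicate 2 the counts of higher and lower genes were 7 and 2 for basement membranes, 8 and 0 for SLC4 and acid-base, 9 and 1 for PEBP and ERK cascade, and 1 and 3 for the nuclear envelope. Without each of the other 5 libraries in turn, 0 genes of these lists were called in edgeR, except 1 PEBP and ERK cascade gene without day 85 replicate 3.

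Genes of other tissues that the libraries could hold were counted in the same way. MYBPC2 was the 1 of 32 tested fibre genes that passed in edgeR (12 did in DESeq2 and 14 before adjustment), at 286, 25.6 and 304 CPM at day 85, against 5.20, 5.91 and 8.83 CPM at day 45 (log2 change 4.94, SE 0.96, edgeR adjusted p = 0.0428). It was above all day 45 libraries in replicate 2, as HMCN2, SLC4A9, PEBP4 and MLIP were. Of the fibre list, ACTA1, TCAP and TPM1 were too, at 714, 83.5 and 472 CPM. Their highest day 45 libraries had 559, 79.6 and 444 CPM. Of the 32 tested, 31 had a positive log2 fold change, and without day 85 replicate 2 the number that passed was 27; without each other library in turn it was 0. Of 12 tested myogenic genes 0 passed in edgeR or DESeq2, and 0 were at an unadjusted p under 0.05; without day 85 replicate 2, 2 passed. The heart is the other tissue in which MLIP is known to be abundant, and its markers NPPA and NPPB had no count in any library. MYH6, a heart myosin that jaw muscles also use, stood at 189, 7.47 and 70.5 CPM at day 85, against 17.6, 17.7 and 38.1 CPM at day 45 (edgeR adjusted p = 0.278). MYL7, an atrial myosin light chain, stood at 385, 14.8 and 132 CPM at day 85, against 23.9, 12.0 and 34.2 CPM at day 45 (log2 change 2.92, SE 1.09, edgeR adjusted p = 0.145).

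Endothelial genes moved with the 4 genes as well, and with less difference between the day 85 libraries. Of 11 tested, edgeR called 8 higher and 0 lower and DESeq2 11 higher and 0 lower, with a median log2 fold change of 1.40 and 0 lower at an unadjusted p under 0.05. Their summed level was 2066, 1408 and 1546 CPM at day 85, against 648, 537 and 792 CPM at day 45. VWF, the von Willebrand factor, stood at 115, 105 and 83.1 CPM at day 85, against 15.0, 10.4 and 21.9 CPM at day 45 (edgeR adjusted p = 0.0160). Without each of the other libraries in turn 0 to 2 endothelial genes passed, and without day 85 replicate 2 all 11 did. Of 6 tested adipocyte genes, 4 were called higher (0 without day 85 replicate 1 or without any 1 day 45 library, and 2 without day 85 replicate 3). CFD, the protease adipsin, stood at 87.5, 84.2 and 57.8 CPM at day 85, against 11.3, 19.1 and 18.3 CPM at day 45 (edgeR adjusted p = 0.0171). The part of muscle, vessel or fat cells in the levels of HMCN2, SLC4A9, PEBP4 and MLIP was not tested.

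Of the other tissue lists, edgeR called 0 of 17 tested cartilage genes higher and 4 lower, and DESeq2 0 higher and 12 lower. Higher calls were 2 of 10 for mural cells, 1 of 8 for red cells and 4 of 10 for macrophages (3, 7 and 8 in DESeq2), and lower calls 1 of 12 for bone, 1 of 14 for tendon and fibroblasts, 1 of 10 for mural cells and 2 of 9 for neurons (2, 4, 1 and 6 in DESeq2). Without day 85 replicate 1, or without any 1 of day 45 replicates 1 and 2, none of these lists kept a call in edgeR; without day 85 replicate 2, 4 red cell genes were higher and 15 cartilage and 5 neuron genes lower. EdgeR called 0 of 12 osteoclast, 9 Schwann cell, 9 epithelial and 6 heart genes in either direction. At an unadjusted p under 0.05, 10 osteoclast, 1 Schwann cell and 1 heart gene were higher and 1 epithelial gene lower. Without day 85 replicate 2, edgeR called 4 osteoclast genes higher, with replicate 2 as the only day 85 library 8, and with ACTA1 as a covariate 12. DESeq2 called 7 osteoclast, 1 Schwann cell and 1 heart gene higher and 2 epithelial genes lower.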

How the data were processed

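The authors deposited 1 table holding, for each gene and library, a raw count and an FPKM value, per the file headers; per the submitters' processing notes reads were aligned with HISAT2. Per the labels' protocols, ribosomal RNA was removed and the second cDNA strand degraded. The counting program, its strand setting, the build and the annotation were not stated in the labels or headers. For 10748 genes with at least 50 counts in each library, the deposited FPKM matched counts scaled by library total and 1 length per gene, to within 0.00123%. The table names 16162 genes itself, and an ID table named 1774 more; where rows share a name, the one with the highest summed count carries it. Rows are of genes only, and all per-sample columns were matched to a sample.

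Counts were tested over all genes with edgeR 4.0.16 (R 4.3.3): filterByExpr with a minimum count of 10, TMM scaling, robust quasi-likelihood F test on age alone, Benjamini-Hochberg adjustment, threshold 0.05. The SE is the size of the log2 fold change divided by the square root of F. Replicates may be technical, so p-values measure only the spread between these libraries. No pair of libraries was a duplicate (chi-square per degree of freedom 20.2 or more). Alternatives used DESeq2 1.42.0 and limma 3.58.1. The 4 genes and the gene lists (4 of partners, 16 of cell type markers) were chosen with earlier results of these data known. Named genes are the 4, ACTA1, their 5 most similar genes averaging at least 1 CPM, the relatives of each, and in each list up to 4 called genes or the most abundant; other list members are named after their values were seen. Sequences were not used here. Some genes that the rule names are not reported here.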

Additional observations from a re-analysis of the deposited data

How the results depend on the processing

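The rise of HMCN2, SLC4A9, PEBP4 and MLIP kept its direction in every alternative fit, but that of MLIP did not in its ratio to ACTA1. Log2 fold changes stayed within the spread between libraries under other scalings (RLE, upper quartile, library totals, TMM without muscle genes), both filters, DESeq2, limma-voom and leaving out each library. They moved further for HMCN2, SLC4A9 and MLIP with limma-trend on log2(FPKM + 1) (2.77, 2.48 and 1.93), which compresses low genes, and for HMCN2, SLC4A9, PEBP4 and MLIP with log2 ACTA1 as a covariate (2.67, 1.39, 2.39 and 2.04) and with day 85 replicate 2 alone (3.40, 1.97, 2.88 and 2.35). Relative to ACTA1 the log2 differences of these 4 were 2.64, 0.68, 0.89 and -0.17, so the sign turned for MLIP. Relative to other gauges they were 4.74, 2.78, 2.99 and 1.93 (MYLPF), 3.70, 1.73, 1.94 and 0.89 (CKM) and 4.68, 2.72, 2.93 and 1.87 (fibre list). Over all genes, 586 were higher and 400 lower. DESeq2 called 2064 and 1770; limma-trend on log2(FPKM + 1) called 442 higher and 614 lower and on log2(FPKM + 0.1) 447 and 588, library totals alone gave 437 and 598, so the balance turned, and day 85 replicate 2 alone 187 lower. Leaving out 1 library gave 0 to 1884 higher and 0 to 1528 lower.

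List counts moved too. Basement membrane calls were 10 higher and 3 lower in DESeq2, 1 higher with ACTA1 as a covariate, 1 higher and 0 lower with day 85 replicate 2 alone, and 0 to 7 higher and 0 to 2 lower leaving out a library. SLC4 and acid-base calls were 1 higher without a filter and in limma-voom, 8 higher and 1 lower in DESeq2, 3 higher with ACTA1, 1 lower with replicate 2 alone, and 0 to 8 higher leaving out a library. PEBP and ERK cascade calls were 8 higher in DESeq2, 4 with ACTA1, and 0 to 9 higher and 0 to 1 lower leaving out a library. Nuclear envelope calls were 1 higher in DESeq2, 1 lower with ACTA1 and with replicate 2 alone, and 0 to 1 higher and 0 to 3 lower leaving out a library. The cause of these shifts was not tested. Correlations of same-numbered deviations were 0.0265, 0.281 and 0.0816. No values for unlike numbers stand beside them, so they do not settle whether replicate numbers pair the libraries. With the replicate number as a block, 217 genes were lower, 0 basement membrane and 1 nuclear envelope gene among them, and the log2 fold changes of the 4 genes were 5.90, 4.08, 4.13 and 3.08. At 9 to 36 counts in most day 45 libraries, the low levels of the 4 genes are known only coarsely.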
